A study of Homo sapiens with 38 samples.

Results

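The subject of these measurements was an exchange of the disordered part of a transcription factor while its DNA-binding part stayed the same. EWS IDR-Sp1 DBD carries the intrinsically disordered region (IDR) of EWS, an RNA-binding protein of the FET family, in front of the zinc-finger DNA-binding domain (DBD) of Sp1, and Sp1 WT is the full-length factor. Both were profiled by CUT&RUN with a mouse anti-FLAG antibody, 2 samples per line, and these 4 samples were chosen by line and antibody from the 38 samples and 19 peak lists of the series. The cells were U2OS, a human osteosarcoma line, in which the endogenous SP1 gene carries V5-Halo on every copy, so tagged endogenous Sp1 was present in both lines. The FLAG-tagged transgene sat at the AAVS1 site behind a doxycycline-inducible promoter, and doxycycline at 1 μg/ml was given for 36 hours before transgene-expressing cells were sorted and for 36 hours after. The knock-in cells were a clone, and whether the samples of a line came from separate inductions is not stated in the labels. The authors merged the 2 samples of each line into a single list of reproducible peaks. The EWS IDR-Sp1 DBD list (EWS list below) held 2535 peaks and the Sp1 WT list (WT list) held 5151. Where the 2 lists were set against others, these were the mouse anti-FLAG list of the isolated Sp1 DBD, with 3277 peaks, the anti-V5 lists of the parental line, which report endogenous Sp1, with 1987 peaks for the rabbit and 1830 for the mouse antibody, the anti-V5 lists of the Sp1 WT line, with 1790 and 1332 peaks, and as controls the mouse anti-FLAG lists of the parental line and of SNAP-NLS, with 22 and 295 peaks.

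Sp1 is a widely expressed activator whose zinc fingers bind GC boxes, short GC-rich elements that are frequent in promoters with CpG islands. Its glutamine-rich disordered segments contact other transcription factors and the general transcription machinery. EWS is best known from Ewing sarcoma, where its disordered segment is fused to the DNA-binding domain of an ETS factor such as FLI1. In CUT&RUN an antibody brings a nuclease to the bound protein, and the DNA that is cut loose is sequenced. Each peak carries a −log10 p-value for every replicate. The merged value, which was used here to rank peaks inside a list and once to choose pairs of similar value, was the smaller of the 2 replicate values in 2535 of 2535 and 5151 of 5151 peaks.

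The kinds of site compared can be seen at the summits of some of the highest ranked peaks outside repeated sequence. A WT peak near ZFP41 that ranked between the WT peaks shown is left out. The following stretches of 61 bases (hg38, plus strand) were centred on the summit, with GC boxes (GGGCGG) and CCAAT words in capitals on either strand. The first pair were the highest ranked peaks of the EWS list that no WT peak overlapped, at chr12:53379875-53379935 upstream of SP1 and chr17:42678216-42678276 upstream of PLEKHH3.
SP1: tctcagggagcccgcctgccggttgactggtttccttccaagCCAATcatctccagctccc
PLEKHH3: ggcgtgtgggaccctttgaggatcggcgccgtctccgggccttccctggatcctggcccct
The second pair were WT peaks that no EWS peak overlapped, at chr9:134025194-134025254 upstream of BRD3OS and chr7:36152895-36152955 upstream of EEPD1.
BRD3OS: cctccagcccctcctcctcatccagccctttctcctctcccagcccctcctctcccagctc
EEPD1: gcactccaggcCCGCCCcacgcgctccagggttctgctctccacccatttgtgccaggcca
The third pair stood at the top of both lists, at chr5:181281710-181281770 in an intron of ENSG00000248103 and chr19:35869966-35870026 upstream of APLP1, inside an intron of another APLP1 transcript.
ENSG00000248103: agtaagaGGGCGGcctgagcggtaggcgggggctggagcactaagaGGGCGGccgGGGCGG
APLP1: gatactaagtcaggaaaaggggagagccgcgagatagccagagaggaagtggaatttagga
GC boxes were present in the EEPD1 and ENSG00000248103 stretches, and a CCAAT word in that of SP1.

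To see how far the 2 lists held the same sites, they were first intersected. Of the 2535 EWS peaks, 1821 (71.8%, 95% Wilson interval 70.1 to 73.6) overlapped a WT peak by at least 1 bp, and 714 were found in the EWS list only. Of the 5151 WT peaks, 1807 (35.1%, 33.8 to 36.4) overlapped an EWS peak and 3344 were found in the WT list only. The lists differ in length, so the overlap was recomputed with the 2535 WT peaks of the highest −log10 p, which left 1350 EWS peaks (53.3%, 51.3 to 55.2) and 1334 WT peaks (52.6%, 50.7 to 54.6) shared. A further 471 EWS peaks overlapped lower WT peaks alone. These intervals cover counting error over peaks only, and a peak missing from a list is a peak that did not pass the reproducibility threshold there, not a site shown to be unbound. The sequencing depth behind each list is unknown here.

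Peaks found in the EWS list only were spread over the whole range of strength. In the highest decile of the EWS list 43 of 253 peaks (17%) had no WT counterpart, and in the lowest decile 112 of 254 (44.1%) had none. In the WT list the share without an EWS counterpart was 21.6% in the highest decile (111 of 515) and 90.7% in the lowest (468 of 516). Most of the strongest unshared peaks lay over a peak of another Sp1 list. Of the 43 EWS peaks in the highest decile, 41 (95.3%) overlapped a peak of the Sp1 DBD or of a parental V5 list, and so did 109 of the 111 WT peaks (98.2%). In the lowest deciles these shares were 32.1% and 20.5%. Over all unshared peaks they were 52.7% (EWS) and 47% (WT), and over all peaks of the lists, shared ones included, 77.7% and 61.2%.

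**Figure D1:**
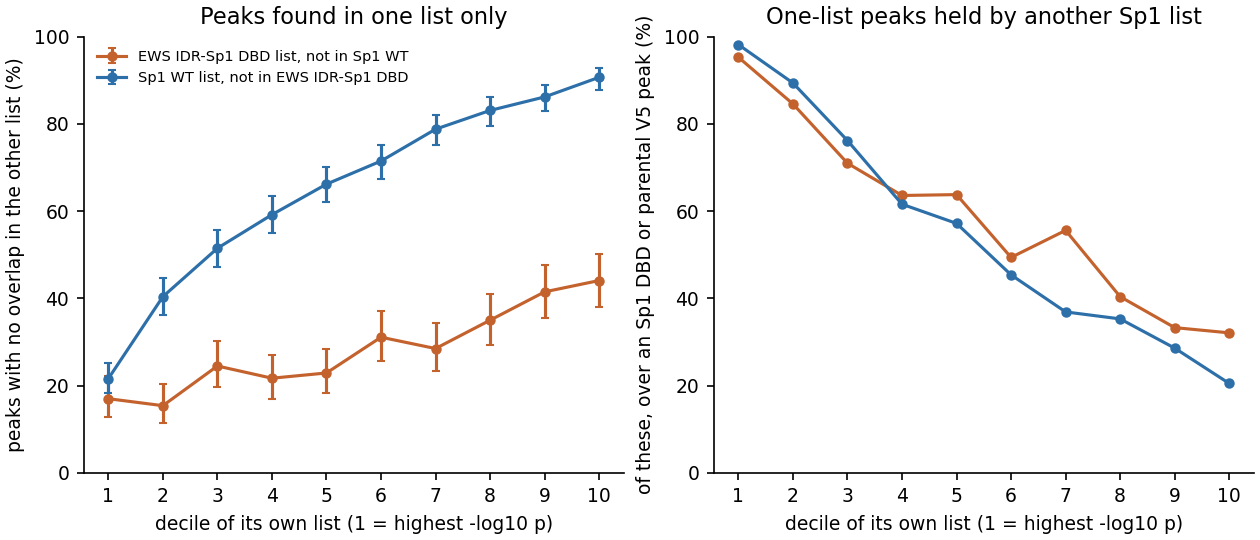
Left, share of peaks in each decile of a list, ordered by merged −log10 p, that had no overlap in the other list, with 95% Wilson intervals; right, share of those unshared peaks that overlapped an Sp1 DBD or parental V5 peak. Unshared peaks rose from 17% to 44.1% in the EWS list and from 21.6% to 90.7% in the WT list, while the share held by another Sp1 list dropped from 95.3% to 32.1% and from 98.2% to 20.5%.

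The same measure was taken on the lists most like these. The highest decile of the Sp1 DBD list lacked a WT counterpart for 20.5% of its peaks (67 of 327, interval 16.5 to 25.2), close to the 17% (12.9 to 22.1) of the EWS list. For the parental V5 lists the share missing from the WT list was 22.7% (rabbit, 17.4 to 29.1) and 20.8% (mouse, 15.5 to 27.2). Between the 2 V5 lists it was 6.06% and 6.01%, and between EWS and Sp1 DBD it was 9.88% (6.78 to 14.2). The 4 intervals of the shares missing from the WT list overlap one another, and the difference between them was not tested. At equal list length the share of peaks shared with the WT list was 53.3% for EWS and 62.2% for Sp1 DBD. For the parental V5 lists, where the protein is full-length Sp1, it was 56.4% (rabbit) and 58.3% (mouse). A partial overlap with the WT list was thus not particular to the EWS list, and these differences were not tested.

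The strongest peak that was found in the EWS list only lay at the promoter of SP1 itself (chr12:53379295-53381676, summit 271 bp upstream of the transcription start site). It was the 13th of 2535 peaks, with −log10 p of 62.6 and 86.6 in the 2 replicates, and the nearest WT peak was 39.8 kb away. The anti-V5 lists of the Sp1 WT line, made in the same line as the WT list, held a peak there at 70.1 (rabbit) and 66.6 (mouse). The Sp1 DBD list held it at 35.7 and the parental V5 lists at 72.7 and 78.3. Of the 7 lists compared here the mouse anti-FLAG list of Sp1 WT alone lacked this peak. Values of different lists are not on a common scale.

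Of the 10 highest ranked peaks found in the EWS list only, 7 overlapped a Sp1 DBD peak and 9 a parental V5 peak, and 8 overlapped a V5 peak of the Sp1 WT line. Replicate values ran from 44 to 86.6. ZBTB20, a zinc-finger repressor, had values of 57.7 and 68.2 at a summit 72 bp upstream of its start (chr3:115146501-115148075). SAP130, a subunit of the SIN3 histone deacetylase complex, had 60.7 and 56.4 in its first untranslated exon (chr2:128027076-128028758). CCNT2, a cyclin of the elongation factor P-TEFb, had 55.0 and 49.8, and the DNA glycosylase gene OGG1 had 46.5 and 61.7. SEPTIN10, a cytoskeletal GTPase gene, had 44 and 55.0. TNNT1, the slow skeletal troponin T gene, had 49.4 and 44.4 and was held by the Sp1 DBD list at 35.2 but by none of the V5 lists. PLEKHH3 (70.1 and 61.9) and ENSG00000289222 (44.4 and 66.3) were absent from the Sp1 DBD list and present in both parental V5 lists.

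Among the 10 highest ranked peaks found in the WT list only, 7 overlapped a Sp1 DBD peak and 9 a parental V5 peak. Their replicate values ran from 74.2 to 159. The first was upstream of BRD3OS (chr9:134024621-134025493) at 112 and 159, 8th of 5151 peaks, with 51.1 in the Sp1 DBD list and 127 in each parental V5 list. EEPD1 had 95.9 and 128 (chr7:36152543-36153626), and the Arf GTPase-activating protein gene ASAP3 had 87.2 and 93.1. CIC, which encodes a repressor of growth-factor target genes, had 77.3 and 109 at a summit 293 bp upstream of a start. It was absent from the Sp1 DBD list. PEG3, a paternally expressed imprinted gene, had 78.6 and 108 at a summit 1218 bp downstream of a start (chr19:56837589-56840847). It was held by the parental rabbit V5 list alone among the V5 lists.

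The next question was whether shared sites kept their order of strength. Overlapping peaks formed 1804 pairs of 1 peak each. Spearman's rho of the merged −log10 p between the lists was 0.474 across these pairs, given as a description because peaks are not replicates. Between single replicates of the 2 lists it was 0.387, 0.409, 0.545 and 0.582, whereas the 2 replicates of a line gave 0.696 for EWS IDR-Sp1 DBD and 0.834 for Sp1 WT on the same peaks. On the 1480 peaks that were paired in the Sp1 DBD list too, rho was 0.468 between EWS and WT, 0.669 between EWS and Sp1 DBD and 0.665 between Sp1 DBD and WT. Of these 3 comparisons, which share lists with each other, EWS against WT was the lowest, and its replicate combinations (0.380 to 0.577) lay below those of Sp1 DBD against WT (0.615 to 0.758), although the EWS replicates also correlated less with each other (0.694) than those of Sp1 DBD (0.785).

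Pairs from the top of the EWS list lay mostly at the top of the WT list. Shared WT peaks ranked high as a whole, with a median percentile of 72.6. Of the 520 pairs from the first quartile of the EWS list, 401 (77.1%) lay in the first quartile of the WT list and 15 (2.88%) in the last. Of the 361 pairs from the last quartile of the EWS list, 75 (20.8%) lay in the first quartile of the WT list. The highest mean ranks belonged to an intronic peak of the long noncoding gene ENSG00000248103 (93.0 and 137 in EWS, 126 and 136 in WT), to APLP1, which encodes a relative of the amyloid precursor protein (64.1 and 86.0, 129 and 160), and to IMPA2, an inositol monophosphatase gene (91.4 and 88.3, 86.7 and 141). SLC17A7, a vesicular glutamate transporter gene, was the 19th EWS and the 16th WT peak.

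The pairs that moved most were chosen by their change in rank percentile, so their values are a description. Upward in the EWS list, TINAGL1 stood at percentile 87.7 with replicate values of 29.9 and 31.1, against 3.16 in the WT list with 8.99 and 26.5. NFKBIZ, an inducible regulator of NF-κB target genes, stood at 78.3 with 42.7 and 24.1, against 7.59 with 9.76 and 25.7. In both WT peaks the replicates lay far apart, and the merged rank followed the lower value. Downward, OARD1 stood at 3.08 (11.3 and 10.3) against 97.5 (66.7 and 101), and the T-type calcium channel gene CACNA1G at 2.47 (10.2 and 16.8) against 94.2 (55.0 and 53.7). DBP, a clock-controlled transcription factor gene, stood at 6.73 (10.7 and 19.6) against 89.0 (42.2 and 76.5). SPTLC2, which encodes a subunit of the first enzyme of sphingolipid synthesis, stood at 14.7 (11.3 and 25.6) against 96.7 (63.2 and 108). KLHL26 stood at 1.54 against 88.8. The 5 downward peaks all lay within 1000 bp of a start, and so did 3 of the 5 upward peaks.

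**Figure D2:**
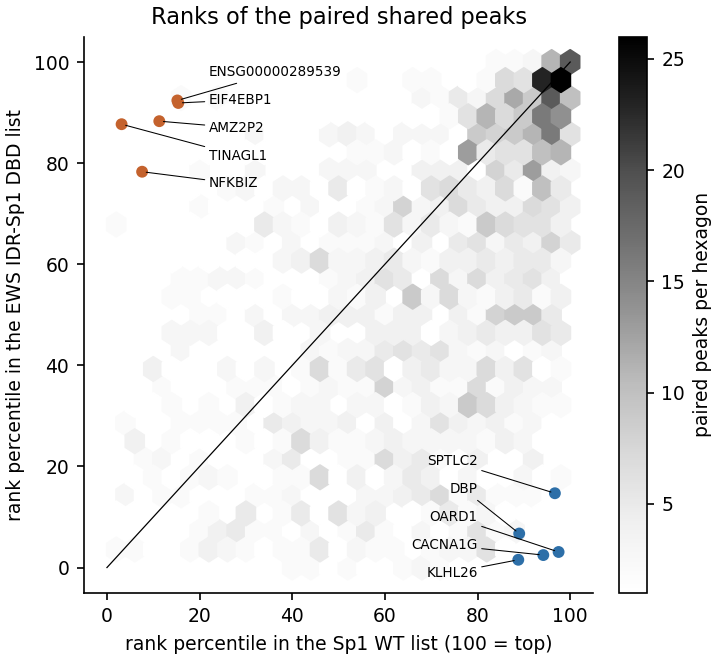
Rank percentile of the 1804 paired peaks in the Sp1 WT list (x axis) and in the EWS IDR-Sp1 DBD list (y axis), as counts per hexagon, with the diagonal of equal percentile. The 5 largest rises in the EWS list (orange) and the 5 largest falls (blue) are named, and the densest hexagons lie in the upper right corner, where both lists rank a peak highly.

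Paired peaks were narrower in the EWS list. The median width was 846 bp for EWS IDR-Sp1 DBD and 1156 bp for Sp1 WT, and 1512 of the 1804 pairs (83.8%) were narrower in the EWS list, with a median difference of −268 bp (interquartile range −512 to −87.8). The medians of the single replicates were 758 and 724 bp in EWS against 903 and 1124 bp in WT and did not overlap. With 2 replicates on each side an exact two-sided permutation test cannot go below p = 0.33, which is the value it gave. The −log10 p of the same peaks moved with the width, with replicate medians of 18.8 and 21.5 in EWS and 27.4 and 46.1 in WT. In 452 pairs whose merged values were within a ratio of 0.8 to 1.25, a choice made after the data were seen, the medians were 892 and 1100 bp and the difference was −176 bp. Values of the 2 lists are not on a common scale, and the part of signal strength in the width difference was not tested beyond this. On the peaks paired in all 3 lists the Sp1 DBD had a median width of 1029 bp, with replicate medians of 970 and 901 bp. Narrower peaks than in the WT list were not particular to the EWS list. Paired with the WT list on their own pairs, Sp1 DBD peaks had a median difference of −140 bp. For the parental V5 lists, which report endogenous full-length Sp1, it was −415 bp (rabbit) and −387 bp (mouse).

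Summits of paired peaks lay nearly as close between the lists as between replicates of a line. Between single replicates of the 2 lists the median distance was 42, 46, 48 and 50 bp, while the 2 replicates of the same peak lay 44 bp apart in EWS and 40 bp apart in WT. Distances of more than 200 bp made up 16.5% between single replicates of the lists, 14.1% within EWS and 13.2% within WT, and distances of up to 50 bp 52.7%, 54.7% and 57.2%. These differences were not tested. Merged summits, nearly all of which are the mean of both replicates, lay a median of 41 bp apart (interquartile range 16 to 102). Near a transcription start site the EWS summit was downstream of the WT summit in 817 of 1577 pairs (51.8%) and upstream in 746, with a median shift of 3 bp along transcription. Median summits lay 65 bp (EWS) and 57 bp (WT) upstream of the start. The nearest GC box within 200 bp of both summits was at a median of 40.5 bp from the EWS and 39.5 bp from the WT summit (1628 pairs).

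**Figure D3:**
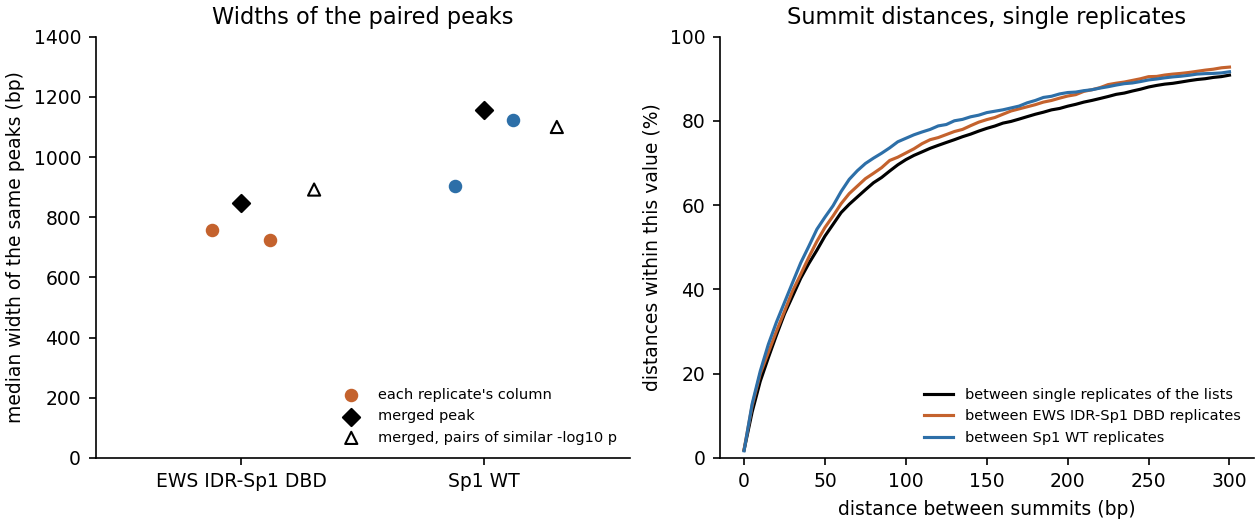
Left, median width of the 1804 paired peaks in each replicate (circles) and in the merged peaks (diamonds), with the 452 pairs of similar −log10 p as open triangles; right, cumulative share of distances between the summits of single replicates, within each list and, for all 4 combinations of replicates, between the lists. Both EWS replicates (758 and 724 bp) lie below both WT replicates (903 and 1124 bp), and the curve between the lists lies slightly below both curves between replicates, with 16.5% of distances above 200 bp against 14.1% and 13.2%.

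Unshared peaks of the EWS list lay less often at promoters. A summit within 1000 bp of a transcription start site was found for 471 of the 714 peaks in the EWS list only (66%), for 2740 of 3344 in the WT list only (81.9%), and for 1594 of the 1821 shared EWS peaks (87.5%). The difference between the unshared classes was −16 percentage points (95% interval −19.7 to −12.3, two-sided Fisher's exact test, adjusted p = 3.4e-19 over 20 tests). Set against the 1201 unshared peaks among the 2535 highest ranked WT peaks, of which 83.8% were near a start, it was −17.8 points (−21.9 to −13.7, Fisher's exact test, adjusted p = 3.1e-18). There the EWS peaks were still those without overlap in the full WT list. With the overlap recomputed at equal list length the difference was −10.5 points (unadjusted p = 4e-10, Fisher's exact test). These tests count peaks and compare the 2 lists, not cultures. For starts of protein-coding genes the shares were 58.1%, 75.6% and 80.6%. Summits inside a gene and away from any start made up 17.6% of the peaks in the EWS list only and 9.78% of those in the WT list only, and summits outside genes 16.4% and 8.28%. In the highest decile the share near a start was 79.1% for unshared EWS peaks (34 of 43) and 89.2% for unshared WT peaks, and in the lowest decile 52.7% and 79.7%.

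The promoter share of these peaks differed with membership in the Sp1 DBD list. Of the 714 peaks in the EWS list only, 335 (46.9%) overlapped a Sp1 DBD peak, and 80.6% of these were near a start, against 53.0% of the 379 that did not. In the WT list only, 1021 of 3344 peaks (30.5%) overlapped a Sp1 DBD peak, 16.4 percentage points fewer (12.4 to 20.4, Fisher's exact test, adjusted p = 3.2e-16). Against the highest ranked unshared WT peaks, 48.7% of which overlapped, the difference of −1.79 points (−6.42 to 2.83) did not pass the test (adjusted p = 0.45, Fisher's exact test). A parental rabbit V5 peak was overlapped by 20.7% of the peaks in the EWS list only and by 24.6% of those in the WT list only (difference −3.85 points, −7.17 to −0.541, Fisher's exact test, adjusted p = 0.039). For the mouse V5 list the shares were 20.3% and 22.3% and the difference did not pass the test (adjusted p = 0.27, Fisher's exact test). Among the peaks without an EWS counterpart in the WT list, overlap with endogenous Sp1 sites followed rank. For rabbit V5 it was 46.3% of the highest ranked and 12.4% of the lower peaks. The peaks in the EWS list only were of all ranks. Their median rank percentile was 36.4, against 69.5 for the highest ranked WT peaks without an EWS peak. Comparisons with those WT peaks therefore do not separate rank from list. A parental rabbit V5 peak was overlapped by 20.7% of the peaks in the EWS list only and by 46.3% of the highest ranked WT peaks without an EWS peak (difference −25.6 points, −29.7 to −21.5, Fisher's exact test, adjusted p = 2e-29), and a mouse V5 peak by 20.3% and 43.2%. Summits in repeated sequence made up 11.2% of the peaks in the EWS list only and 7.98% of those in the WT list only (difference 3.22 points, 0.731 to 5.71, Fisher's exact test, adjusted p = 0.0091). Against the highest ranked of these, at 9.08%, the difference of 2.13 points (−0.698 to 4.96) did not pass the test (adjusted p = 0.16, Fisher's exact test). A peak of the mouse anti-FLAG control lists was overlapped more often in the EWS list only, by 20 peaks (2.8%, 1.82 to 4.29). In the WT list only 12 peaks overlapped one (0.359%, 0.205 to 0.626), and of the shared EWS peaks 0.439% did. This difference was not tested.

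The share of peaks with a GC box near the summit did not pass the test between the unshared classes, while the share with a box anywhere in the peak did. The box lay within 100 bp of the summit in 75.9% of shared EWS peaks, 64.3% of peaks in the EWS list only and 66.8% of those in the WT list only, against 53.7% of windows of the same length at the starts of 20033 protein-coding genes. The difference between the unshared classes was −2.55 points (−6.41 to 1.31, Fisher's exact test, adjusted p = 0.21). With the box counted anywhere in the peak it was −6 points (unadjusted p = 5e-06, Fisher's exact test). Median widths were 770 bp in the EWS list only and 840 bp in the WT list only. Each unshared class had fewer boxes than the shared peaks of its own list (−11.7 points for EWS, adjusted p = 1.1e-08, and −9.48 points for WT, adjusted p = 1.6e-12, Fisher's exact tests). Near a start the shares were 76.6% in the EWS list only and 72.2% in the WT list only.

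The CCAAT word, which is bound by the factor NF-Y at many promoters, was less frequent in the EWS list only. It was singled out after its values were seen among the 10 words searched, so it is given with intervals and no test. It lay within 100 bp of the summit, on either strand, in 130 of 714 peaks in the EWS list only (18.2%, 15.5 to 21.2), in 31.7% of those in the WT list only (30.2 to 33.3) and in 38.7% (36.0 to 41.5) of the highest ranked of these, against 25.9% of shared EWS peaks and 25.3% of all promoter windows. Among peaks near a start the shares were 20.6% (17.2 to 24.5) in the EWS list only, 33.6% (31.9 to 35.4) in the WT list only and 42.0% (39.0 to 45.1) in the highest ranked WT peaks without an EWS peak. The word became rarer with rank in both lists, from 29.9% to 23.4% of the peaks near a start between the first and last quartile of the EWS list and from 37.7% to 25.7% in the WT list. Peaks near a start that neither the WT nor the Sp1 DBD list held had the word in 15.4% (11.1 to 21.1). When every list was limited to its 1332 highest ranked peaks, the length of the shortest V5 list, the share was 25.9% in EWS IDR-Sp1 DBD (23.6 to 28.3), 29.1% in Sp1 DBD (26.8 to 31.6), 35.2% in Sp1 WT (32.7 to 37.8), and 40.5 to 48.9% in the 4 V5 lists of the parental and Sp1 WT lines. The V5 lists were made with other antibodies against a protein at its endogenous level, and these cannot be told apart from the protein itself.

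The other words were rarer. The AP-1 word TGANTCA lay in 6.72% of peaks in the EWS list only (5.11 to 8.80), 4.93% in the WT list only and 3.02% of shared EWS peaks. Away from a start, where most of the AP-1 words lay, the shares were 13.6% (9.84 to 18.5) and 14.4% (11.8 to 17.4) in the EWS and WT lists only. The ETS word CCGGAAG lay in 3.22% (2.16 to 4.79) and 8.85% (7.94 to 9.86). A pair of GGAA units, GGAAGGAA, the kind of repeat that EWS-FLI1 binds in Ewing sarcoma through its ETS domain, lay in 2.10% (1.28 to 3.44) and 1.94% (1.53 to 2.47), against 2.02% of promoter windows. A word near a summit is a match of letters and does not show binding of the factor.

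**Figure D4:**
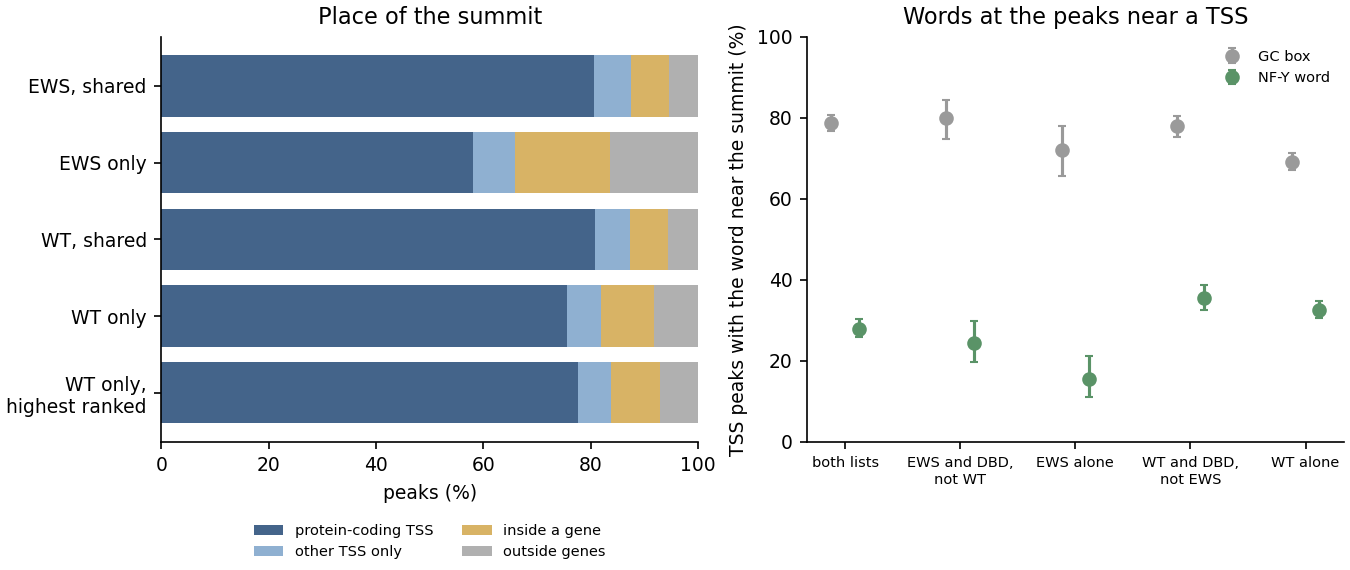
Left, share of peaks by the place of the summit, for shared and unshared peaks of each list; right, share of peaks near a start that hold a GC box (grey) or the NF-Y word (green) within 100 bp of the summit, with 95% Wilson intervals. The EWS list only has the smallest part at starts (66%), and the NF-Y word is least frequent in the peaks that the EWS list alone holds (15.4%) while the GC box ranges from 69.2% to 80%.

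Genes were then assigned by a summit within 1000 bp of a start of a protein-coding gene. Of 20046 such genes, 1715 (8.56%) had a peak in both lists, 430 (2.15%) in the EWS list only and 2869 (14.3%) in the WT list only. With the WT list cut to the length of the EWS list, 1318 genes (6.57%) had a peak in both lists, 827 (4.13%) in the EWS list only and 1130 (5.64%) in the WT list only.

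Among the Sp and KLF factors, which share the zinc-finger fold of Sp1 and bind related GC-rich sites, 15 of 26 genes had a promoter peak. Both lists held SP2, SP4, KLF9, KLF10 and KLF11. SP4 had 57.8 and 58.0 in EWS and 63.7 and 95.7 in WT. KLF10, an early gene of TGF-β signalling, had 42.5 and 43.8 in EWS and 55.1 and 99.7 in WT. SP1 and KLF12 were found in the EWS list only, KLF12 with 42.3 and 20.6. The 8 genes in the WT list only (SP3, SP6, KLF2, KLF3, KLF5, KLF7, KLF13 and KLF16) had merged values from 10.5 to 41.5, with SP3 at 15.3 and 31.8 and KLF13 at 41.5 and 97.9. The shares of the list, 19.2% in both, 7.69% in EWS only and 30.8% in WT only, stand beside the 8.56%, 2.15% and 14.3% of all genes. At equal list length 5 of these genes were in both lists, 2 in the EWS list only and 3 in the WT list only. The shares of all genes were then 6.57%, 4.13% and 5.64%. No promoter peak was found at EWSR1 in either list.

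Of 30 genes that textbooks give as Sp1 targets, 7 (23.3%) had a peak in both lists, 1 (3.33%) in the EWS list only and 10 (33.3%) in the WT list only. The shares of all genes were 8.56%, 2.15% and 14.3%. With lists of equal length the counts were 5, 3 and 4, and the shares of all genes 6.57%, 4.13% and 5.64%. The cell-cycle regulator gene E2F1 had 24.8 and 24 in EWS and 27.8 and 42.5 in WT. The nucleotide synthesis genes TK1 and TYMS were in the WT list only, TK1 with 25.8 and 54.6. Cholesterol synthesis genes, many of which Sp1 activates together with SREBP, were held by both lists for 9 of 27 genes (33.3%) and by the WT list only for 8 (29.6%). Of these LSS, the lanosterol synthase gene, had 25.4 and 24.3 in EWS and 35.0 and 69.5 in WT, and MSMO1 was in the WT list only at 31.4 and 35.2. Cut to equal list length, both lists held 7 cholesterol synthesis genes, the EWS list only 2 and the WT list only 2.

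Housekeeping groups are read against all genes, of which 8.56% had a peak in both lists, 2.15% in the EWS list only and 14.3% in the WT list only. Of 32 proteasome genes 2 were in both lists and 11 in the WT list only (34.4%), PSMD8 the highest at 36.6 and 50.9. Of 79 cytosolic ribosomal protein genes 3 were in both lists (3.8%) and 14 in the WT list only (17.7%). RPS19 was the exception in strength, with 45.5 and 56.3 in EWS and 63.1 and 72.2 in WT. Of 66 genes of the core promoter machinery 9 were in both lists and 15 in the WT list only, among them the Mediator subunit gene MED7 at 41.6 and 44.9 and the TATA-binding protein gene TBP at 12.4 and 18.9. TBP and the proteasome gene PSMB1 share a single WT peak. None of these 3 groups had a gene in the EWS list only. With 2.15% of all genes there, groups of this size are too short to read anything from that. At equal list length, 1 proteasome gene was in the EWS list only and 6 in the WT list only, against 2 and 2 ribosomal protein genes and 1 and 7 genes of the core promoter machinery. The shares of all genes at equal list length were 4.13% in the EWS list only and 5.64% in the WT list only. Counts of 1 or 2 genes are too few to read against them.

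DNA replication genes had 6 of 48 (12.5%) in both lists, 15 (31.2%) in the WT list only and 2 (4.17%) in the EWS list only. Of all genes 8.56% were in both lists, 14.3% in the WT list only and 2.15% in the EWS list only. Equal list length gave 6, 6 and 2 replication genes, beside 6.57%, 5.64% and 4.13% of all genes. PCNA, the sliding clamp, had 35.4 and 45.1 in EWS and 41.5 and 65.1 in WT. RRM2, the small subunit of ribonucleotide reductase, was in the EWS list only with 32.3 and 28.7, as was GINS1 with 11.2 and 10.3. CDC6 (35.3 and 44.1) and POLD4 (47.1 and 68.8) were in the WT list only. Of 70 chromatin regulator genes 14 (20%) were in both lists and 20 (28.6%) in the WT list only. HDAC7 (11.6 and 13.9) was in the EWS list only, which is 1.43% of the group. The acetyltransferase gene KAT6B (69.2 and 109) and the histone demethylase genes KDM6B (66 and 106) and KDM3A (61.2 and 84.3) were the strongest of those in the WT list only. For chromatin regulators equal list length gave 11 genes in both lists, 6 in the WT list only and 4 in the EWS list only. Of 26 growth factor response genes 4 (15.4%) were in both lists, among them EGR1 (13.8 and 14.4 in EWS, 28.4 and 47.2 in WT). In the WT list only there were 4 (15.4%), near the 14.3% of all genes. ZFP36 (14.5 and 15.4) was in the EWS list only, which is 3.85% of the group. A single gene in the EWS list only is too few to read for either group. Here equal list length gave 3 genes in both lists, 1 in the WT list only and 2 in the EWS list only.

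Of 20 genes known as targets of FET-ETS fusions in sarcoma, 3 had a peak in both lists, 2 in the WT list only and 0 in the EWS list only. Under equal list length these counts were 1, 0 and 2. With 2.15% of all genes in the EWS list only, a list of 20 genes is too short to read anything from such counts. NKX2-2 had 10.9 and 16.9 in EWS and 16.8 and 26.9 in WT. Of 18 bone matrix genes COL1A1 alone had a peak, in the EWS list only (15.6 and 29.5), and of 30 neuronal genes 7 had one, with RBFOX3 and SHANK1 in the EWS list only. These lists too are short, and nothing is read from their counts. Peak lists do not measure expression, so the label U2OS could not be checked against marker genes.

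**Figure D5:**
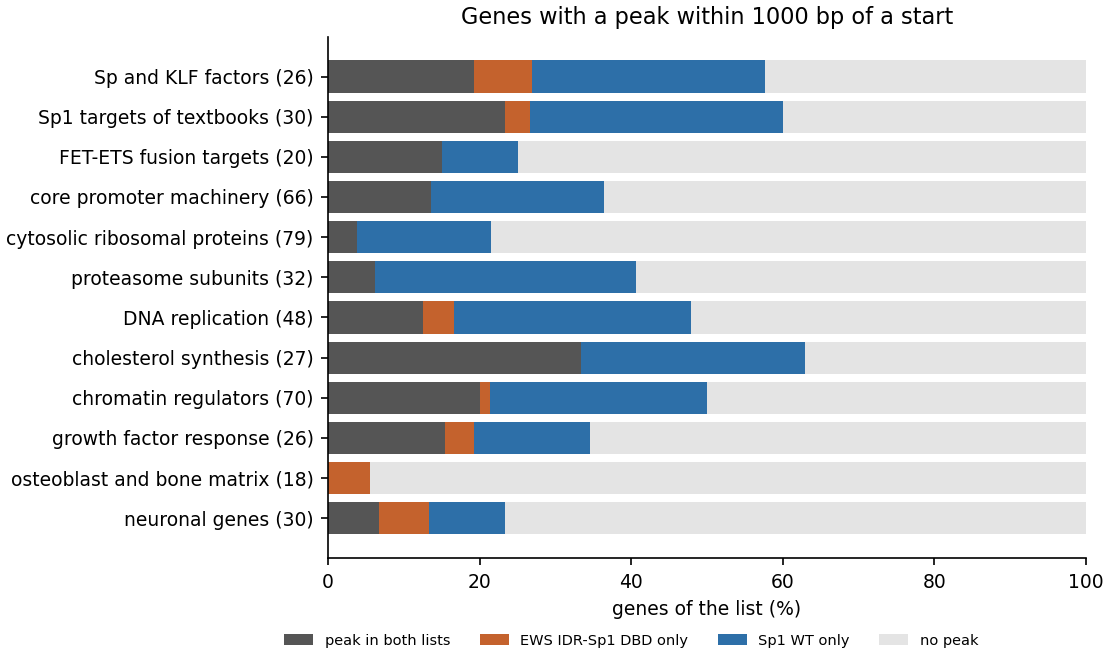
Share of the genes of each list of 10 or more genes (number of genes in brackets) with a peak within 1000 bp of a start in both lists, in EWS IDR-Sp1 DBD only, in Sp1 WT only or in neither. Genes in the EWS list only make up at most 7.69% of any list, against 34.4% for proteasome genes in the WT list only. Bars use the full lists, of which the WT list is the longer. Of all genes 2.15% were in the EWS list only and 14.3% in the WT list only. At equal list length 1 proteasome gene was in the EWS list only and 6 in the WT list only, beside 4.13% and 5.64% of all genes.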

How the data were processed

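CUT&RUN peak lists of 2 lines, with 2 samples each, were compared. Per the methods, adapters were removed (Cutadapt 2.6), read pairs were placed on hg38 (Bowtie2 2.3.5.1) and deduplicated (SAMtools 1.9), and MACS3, given as 2.2.7.1, was run with the merged controls as background at a cutoff of 1e-3. Peaks whose irreproducible discovery rate between the 2 samples was 0.1 or less were retained. The lists were used whole, and for Sp1 WT and the parental V5 antibodies they hold slightly more peaks than the paper reports. The reason for this was not examined. The deposited −log10 p-values refer to the merged peak and to either replicate, and the order of the labelled replicates in the columns is not known. For stricter lists the deposited score was used, which is −log10 of the global irreproducible discovery rate. Tables of differential regions, which hold the authors' own comparisons, were not used.

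Peaks were matched by an overlap of at least 1 bp, and pairs were made 1 to 1 by largest overlap. Start sites came from GENCODE 44, and sequence from hg38, the build of the files. Of the WT peaks tied at the length of the EWS list, 1 fell below the limit. A peak was called repeated where at least 50% of the 31-base words within 100 bp of its summit recur in the genome. Words were searched on both strands within 100 bp of the merged summit. Shares have 95% Wilson intervals, and differences were tested by two-sided Fisher's exact tests with Benjamini-Hochberg adjustment over 20 tests (SciPy 1.17.1, threshold 0.05). Ranks use Spearman's rho without a p. Overlap and pairing were tested on simulated lists.

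Named peaks were the 10 highest ranked of each list without overlap in the other, outside repeats and control peaks, the pairs with the 5 largest rises, falls and mean ranks, and up to 3 genes of each gene list per class, with all Sp and KLF genes that had a peak. Some genes of the lists are not reported here. Other genes named from the lists were chosen after their values were seen. Members and lists were chosen with earlier results of these data known.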

Additional observations from a re-analysis of the deposited data

How the results depend on the processing

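No paired analysis was possible because each list merges both replicates and its columns carry no labelled replicate number. Of the alternatives, equal list length moved the shared share from 71.8% to 53.3% of EWS peaks and from 35.1% to 52.6% of WT peaks, and the genes in 1 list only from 430 to 827 (EWS) and from 2869 to 1130 (WT). With an irreproducible discovery rate of at most 0.05 or 0.01 the shared share of WT peaks was 31.8% and 22.8%, and at 0.01 the EWS list alone held 160 genes. The GC box difference of −2.55 points was −6 (p = 5e-06, Fisher's exact test) with the box anywhere in the peak and 1.14 (p = 0.53) with GGGGCGGGG. The columns of single replicates (leave-one-out) gave rho of 0.387 to 0.582, width differences of −337 to −128 bp and summit distances of 42 to 50 bp. They were read on the same pairs, whose peaks had passed in both replicates, so no peak was selected anew. The lower promoter share of peaks in the EWS list only kept its direction and its side of the threshold under each alternative run (−16 to −10.4 points), and their larger share in the Sp1 DBD list did so under the listed alternatives (7.75 to 17 points) but not against the highest ranked unshared WT peaks alone, where it was −1.79 points (adjusted p = 0.45, Fisher's exact test). The cause of the changes was not tested, but at equal length EWS peaks over lower WT peaks count as unshared. The median width ratio was 0.758. Depth could not limit any statement in numbers, since read numbers were not analysed here.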
